A study of Citrus junos with 4 samples.

Results

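Cells of a leaf move potassium, sodium, protons and anions across the plasma membrane and the tonoplast, the membrane of the vacuole. Plasma membrane H+-ATPases and the vacuolar V-ATPase pump protons, and the voltage and the proton gradient that result drive channels and proton-coupled exchangers. In guard cells such fluxes open and close the stomatal pore, and in other leaf cells they set turgor, cytosolic pH and the partition of sodium between cytosol and vacuole. The genes described here were chosen by words in their deposited descriptions. The rule itself used no expression values, but it was set with earlier results of these data known. A gene was a member where its description contained at least 1 of 12 phrases for potassium channels and transporters, sodium/hydrogen exchangers, cation/H+ and K+ efflux antiporters, HKT sodium transporters, plasma membrane and V-type ATPases, the vacuolar proton pump, chloride channel proteins, S-type anion channels and aluminum-activated malate transporters. The rule found 186 of 29406 genes. Of these, 149 were described as transporters, 32 as other proteins that only matched a phrase, and 5 carried no match but that to sodium/hydrogen exchanger 6.

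The study compared doubled diploid (4x) and diploid (2x) seedlings of Ziyang xiangcheng, a Citrus junos cultivar used as a citrus rootstock, to ask how genome doubling changes gene expression in leaves. Untreated mature leaves, 3-5 months old and from near the plant top, were taken from both groups of greenhouse seedlings, which were 1 year old when transplanted and which share this genotype apart from ploidy. There were 2 libraries of 4x and 2 of 2x, each a pool of leaves from several plants, so that p-values measure the spread between pools and not between plants. Reads of Citrus junos were aligned to the Citrus sinensis genome, and levels are therefore given per Citrus sinensis gene model. The unit is RPKM, a read number per gene that takes gene length and library depth into account. Values are given for replicates 1 and 2 of 4x and then of 2x, and fold changes are 4x over 2x on the log2(RPKM + 0.5) scale.

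The depth behind the RPKM was 9363285 and 8874306 reads in 4x and 9324856 and 9545185 reads in 2x, so 1 read on a gene of 1 kb was worth 0.105 to 0.113 RPKM. The leaf label fitted the levels of 17 mesophyll genes for Rubisco small chain and chlorophyll a-b binding proteins, which summed to 17810 and 18049 RPKM in 4x and 15111 and 18491 RPKM in 2x. Summed levels of 6 phloem genes were 280 and 317 RPKM in 4x and 289 and 239 RPKM in 2x. Summed levels of 18 xylem genes were 290 and 282 RPKM in 4x, against 177 and 179 RPKM in 2x. Of the 5 xylem genes tested, 2 were called higher in 4x, against 0.396% of all tested genes. Log2 fold changes were above 0 in 4 of the 5 and -0.52 in the other. Of 15 mesophyll genes tested, 1 was called lower in 4x, against 0.99% of all tested genes, while 13 were above 0. Among all 16157 tested genes 7170 were above 0. Stomatal lineage genes were near the detection limit, with 7 genes that summed to 2.86 and 4.20 RPKM in 4x and 2.91 and 3.14 RPKM in 2x, and 3 of the 7 were listed at 0 in every library. The kinase gene SRK2E, planned as a guard cell marker, was not in this list and is given with the pathway genes below. It had 35.1 and 35.1 RPKM in 4x and 36.8 and 34.6 RPKM in 2x. The 2 epidermis genes stayed under 0.3 RPKM in sum. The part of these markers in the results below was not tested.

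The members held 75404 and 72175 recovered reads in 4x and 75711 and 76972 in 2x, worked out from the RPKM steps. Their summed level was 4352 and 4299 RPKM in 4x, against 4400 and 4400 RPKM in 2x, which was 0.686 to 0.698% of all summed RPKM. Testing was limited to genes averaging 1 RPKM or more, a filter that 113 members passed. A further 58 were detected below this filter and 15 were listed at 0 in every library. The tested members spanned means of 1.01 to 309 RPKM with a median of 19.0 RPKM, and 9 of them were above 100 RPKM. Of the 73 untested members 23 were CHX antiporters and 11 were ALMT transporters.

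Between 4x and 2x, 1 of the 113 tested members passed an adjusted p of 0.05, lower in 4x, against 1.39% of all 16157 tested genes (limma with Benjamini-Hochberg adjustment over all tested genes). No member was called higher in 4x, where 0.396% of all tested genes were, and the background for lower calls was 0.99%. At an unadjusted p below 0.05 there were 3 members higher and 7 lower in 4x, or 8.85% of those tested. Among all tested genes these shares were 5.14% higher, 8.16% lower and 13.3% in either direction. With limma voom on recovered reads 0 members were called higher and 2 lower, against 2.5% of all tested genes called in either direction, and 4 were higher and 8 lower at an unadjusted p below 0.05, against 13.9%. Both 4x libraries lay above both 2x libraries in 22 members (19.5%; all tested genes, 17.5%) and below them in 30 (26.5%; all tested genes, 26.2%), and over both directions the groups did not overlap in 43.7% of all tested genes. The median log2 fold change was -0.01 over the members and -0.03 over all tested genes, and the median size of the change was 0.13 and 0.14. Member fold changes ran between -0.86 and 0.61 on the log2 scale, and those of all tested genes between -3.42 and 2.19. The 95% interval stayed within a 2-fold change in either direction in 104 members, or 92.0%, which was also the share of all tested genes.

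Among all tested genes 64 were called higher and 160 lower in 4x. With libraries scaled to a common median of ratios the split was 69 higher and 109 lower. That scaling moved the median over all genes to 0.00, and it left 0 members called.

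**Figure D1:**
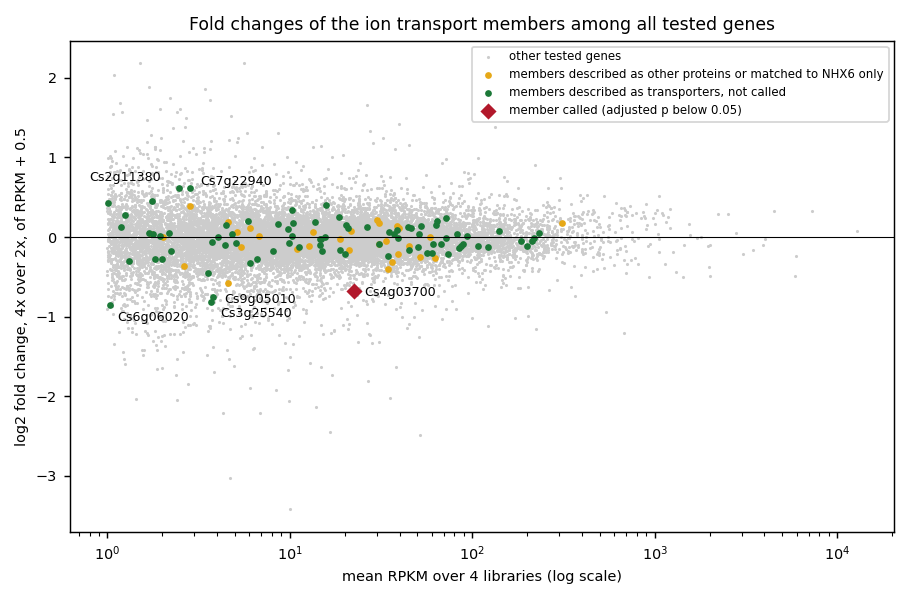
Log2 fold change (4x over 2x, of RPKM + 0.5) against mean RPKM over 4 libraries (log scale) for all 16157 tested genes in grey and the 113 tested members in colour. The member points lie between -0.86 and 0.61, well inside the range of all genes, and the only called member is drawn as a diamond.

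Plasma membrane H+-ATPases pump protons out of the cell and energise uptake through channels and H+-coupled carriers. Of 17 such members 10 were tested, and their summed level was 731 and 718 RPKM in 4x, against 711 and 719 RPKM in 2x. Cs6g03480, matched to plasma membrane ATPase 1, was the most abundant with 259 and 211 RPKM in 4x, against 198 and 258 RPKM in 2x. The groups overlapped, and its log2 fold change was 0.05 (95% interval -0.30 to 0.40, adjusted p = 0.935). It made up 32.4% of the summed level in 4x and 31.9% in 2x. The next pumps were Cs7g07300 with 210 and 227 RPKM in 4x and 243 and 199 RPKM in 2x, and Cs6g20570 with 141 and 148 RPKM in 4x and 141 and 135 RPKM in 2x. Cs6g03480 belongs to 7 members numbered Cs6g034, which summed to 293 and 249 RPKM in 4x and 234 and 290 RPKM in 2x. The values rest on uniquely mapped reads, so the levels of neighbouring copies that share sequence are uncertain.

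The called member was Cs4g03700, a further plasma membrane H+-ATPase gene matched to plasma membrane ATPase 4. It had 15.96 and 18.3 RPKM in 4x, against 30.6 and 25.0 RPKM in 2x, from 506 and 550 reads in 4x and 965 and 809 reads in 2x. Both 4x libraries lay below both 2x libraries. The means were 17.1 ± 1.66 RPKM in 4x and 27.8 ± 3.91 RPKM in 2x (SD, n = 2 each). Cs4g03700 fell in 4x by 0.68 on the log2 scale (SE 0.14, 95% interval -0.98 to -0.38, limma adjusted p = 0.0478), a fitted ratio of 0.625. Its share of the summed plasma membrane H+-ATPase level was 2.36% in 4x and 3.89% in 2x. The call was near the threshold: the adjusted p was 0.215 without 2x replicate 1, 0.0768 without 2x replicate 2, 0.104 without 4x replicate 1 and 0.0457 without 4x replicate 2. In such fits the lone library of a group is assumed to vary like the other group. The adjusted p of Cs4g03700 was 0.0536 with the other scaling and 0.279 with no filter. It was 0.0364 with a filter of 3 RPKM, 0.0366 with robust eBayes, 0.00921 with limma voom and 0.000185 with a replicate block. Because whole leaves were measured, fewer cells of a type and less RNA per cell cannot be told apart.

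**Figure D2:**
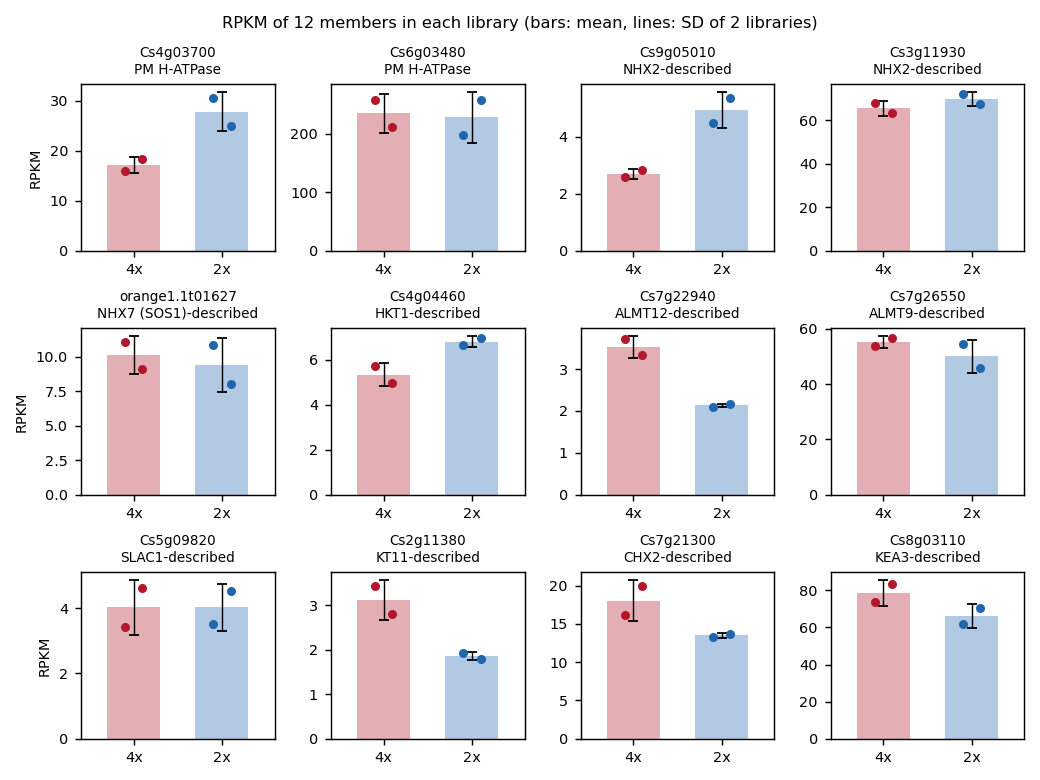
RPKM of 12 members in each library, with 4x left of 2x in every panel (points are libraries, bars are group means and lines are the SD of 2 libraries). Cs4g03700 has 15.96 and 18.3 RPKM in 4x against 30.6 and 25.0 RPKM in 2x, with no overlap.

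The V-ATPase acidifies the vacuole and the endomembrane system, with a cytosolic V1 sector that hydrolyses ATP and a membrane V0 sector that passes protons. Of 24 members 21 were tested, and none was called. Their summed level was 1703 and 1603 RPKM in 4x, against 1772 and 1758 RPKM in 2x, a ratio of means of 0.936. Both 4x sums lay below both 2x sums. By sector, V1 summed to 906 and 849 RPKM in 4x and 933 and 942 RPKM in 2x, and V0 to 796 and 754 RPKM in 4x and 839 and 816 RPKM in 2x. Of the 21 tested genes 19 had a log2 fold change below 0, against 55.6% of all tested genes, and the median was -0.12. With median-of-ratios scaling 17 of the 21 were below 0 with a median of -0.08, against 49.4% of all genes, and with each library left out in turn 16 to 18 were. None of the 21 passed even an unadjusted p of 0.05, and 6 of them (28.6%) had both 4x libraries below both 2x libraries, near the 26.2% of all tested genes.

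In the catalytic hexamer, subunit A (ATP hydrolysis) had 98.0 and 90.3 RPKM in 4x and 90.2 and 96.6 RPKM in 2x. Subunit B (nucleotide binding) had 66.3 and 77.4 RPKM in 4x and 80.4 and 65.1 RPKM in 2x. The groups overlapped in both. Among V1 genes the smallest p was that of Cs2g14330, subunit C, which links V1 to V0, with 51.8 and 53.4 RPKM in 4x and 59.9 and 61.1 RPKM in 2x. Its groups did not overlap, and the log2 fold change was -0.20 (95% interval -0.43 to 0.02, adjusted p = 0.44). The most abundant V1 gene, Cs6g11650 for stalk subunit G, had 191 and 173 RPKM in 4x and 179 and 197 RPKM in 2x, which overlapped.

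The proton-carrying ring of subunit c was the most abundant part of V0, where 4 genes summed to 521 and 490 RPKM in 4x, against 545 and 539 RPKM in 2x. Its leading gene Cs8g07570 had 226 and 194 RPKM in 4x and 207 and 227 RPKM in 2x, with overlap. Subunit d, which caps the ring, had 81.8 and 79.0 RPKM in 4x and 86.5 and 90.6 RPKM in 2x, without overlap. Subunit a, the stator that forms the proton path, had 5 genes that summed to 96.5 and 108 RPKM in 4x and 106 and 103 RPKM in 2x. One of them, Cs3g25540, had 1.23 and 4.21 RPKM in 4x and 6.16 and 3.31 RPKM in 2x, from 4 and 13 reads in 4x and 20 and 11 reads in 2x. The groups overlapped, with a log2 fold change of -0.82 (SE 0.43, 95% interval -1.78 to 0.13, adjusted p = 0.46). It stands beside Cs3g25550 and Cs3g25560, and the 3 neighbours, singled out after their values were seen, summed to 2.39 and 5.64 RPKM in 4x and 9.25 and 6.76 RPKM in 2x. With a library left out the value of Cs3g25540 was -0.10 without 4x replicate 1 (adjusted p = 0.93), -1.54 without 4x replicate 2 (0.042), -0.42 without 2x replicate 1 (0.873) and -1.22 without 2x replicate 2 (0.37). Reads shared with near-identical copies were not counted, which makes the levels of these 3 genes uncertain.

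**Figure D3:**
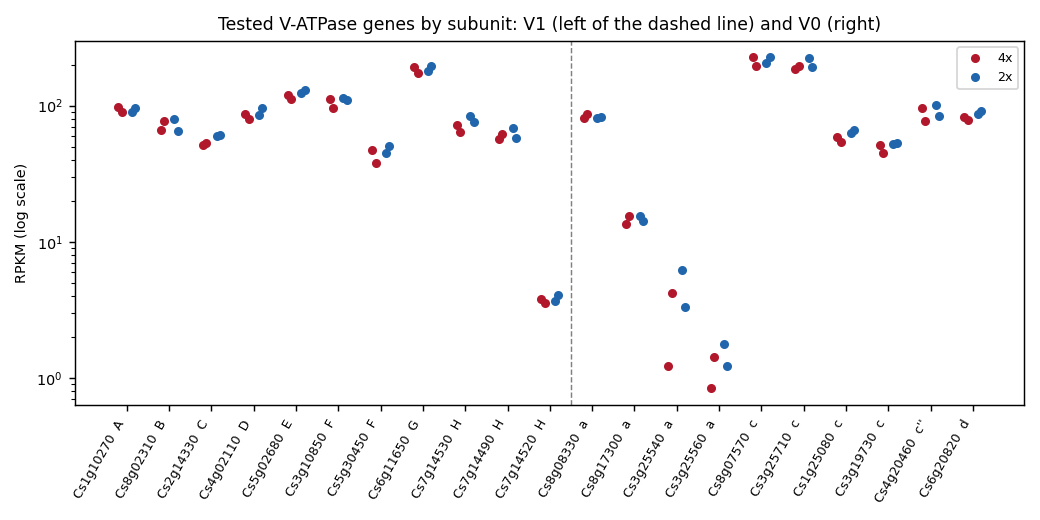
RPKM (log scale) of the 21 tested V-ATPase genes in each library by subunit, with V1 left and V0 right of the dashed line and 4x points left of 2x points. Subunits of one sector differ in level far more than 4x and 2x differ in any of them, apart from Cs3g25540, whose values run between 1.23 and 6.16 RPKM.

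NHX exchangers of the tonoplast move potassium or sodium into the vacuole against protons, and SOS1, the plasma membrane exchanger, moves sodium out. Of 7 members 5 were tested, and the family summed to 125 and 121 RPKM in 4x and 136 and 121 RPKM in 2x. A further tested member of the family, included in these sums, is not described here. Cs3g11930, matched to sodium/hydrogen exchanger 2, was the most abundant with 68.0 and 63.1 RPKM in 4x and 71.8 and 67.4 RPKM in 2x. The groups overlapped, and the log2 fold change was -0.09 (95% interval -0.32 to 0.15). Cs9g05010, also matched to sodium/hydrogen exchanger 2, had 2.58 and 2.82 RPKM in 4x, against 4.49 and 5.38 RPKM in 2x. Its groups did not overlap, and the log2 fold change was -0.76 (SE 0.19, 95% interval -1.20 to -0.32). The adjusted p of 0.106 (limma) missed the threshold, and that on recovered reads with voom was 0.0194. Further named genes of this kind were Cs5g32470, with 3.98 and 4.58 RPKM in 4x and 4.78 and 4.41 RPKM in 2x, and Cs3g12620, which stayed under the filter. The SOS1-matched gene orange1.1t01627 had 11.1 and 9.15 RPKM in 4x and 10.8 and 8.04 RPKM in 2x, with overlap and an interval of -0.29 to 0.50.

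Of the 5 genes with no other match than sodium/hydrogen exchanger 6, Cs7g27560 stood apart with 3.09 and 4.13 RPKM in 4x, against 5.27 and 5.86 RPKM in 2x. Its log2 fold change was -0.57 (SE 0.19, adjusted p = 0.22). The remaining 3 tested genes of this kind overlapped between groups.

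Cation/H+ exchangers of the CHX family act mainly in endomembranes and in pollen and guard cells of Arabidopsis. Only 6 of 29 members passed the filter, and a run of 5 numbered Cs7g304 stayed at or under 0.136 RPKM in sum in every library. The highest, Cs7g21300, had 16.2 and 19.9 RPKM in 4x, against 13.3 and 13.7 RPKM in 2x. Both 4x libraries were above both 2x libraries, with a log2 fold change of 0.40 (SE 0.14, 95% interval 0.09 to 0.71, adjusted p = 0.221). CHX20, which in Arabidopsis guard cells takes part in light-induced stomatal opening, was named in the descriptions of Cs6g05990 and Cs6g06020, which lay on opposite sides of 0. Cs6g05990 had 1.78 and 2.45 RPKM in 4x and 1.61 and 1.20 RPKM in 2x (0.45 on the log2 scale, adjusted p = 0.53). Cs6g06020 had 0.474 and 0.636 RPKM in 4x and 0.865 and 2.15 RPKM in 2x (-0.86, 95% interval -1.69 to -0.02, adjusted p = 0.361). Neither pair of groups overlapped, and neither gene was called.

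K+ efflux antiporters of the KEA family exchange potassium for protons in plastids and endomembranes. Of 8 members 7 were tested, and the family summed to 153 and 174 RPKM in 4x, against 145 and 151 RPKM in 2x. Cs8g03110, matched to KEA3, the thylakoid antiporter that tunes the proton gradient in photosynthesis, made up 46.4% of the summed level with 73.5 and 83.4 RPKM in 4x and 61.6 and 70.7 RPKM in 2x. Its groups did not overlap, and the log2 fold change was 0.24 (SE 0.12, 95% interval -0.02 to 0.51, adjusted p = 0.416).

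HKT1 retrieves sodium from the xylem sap in Arabidopsis. The matched gene Cs4g04460 had 5.70 and 4.97 RPKM in 4x, against 6.64 and 6.97 RPKM in 2x. Both 4x values were lower, with a log2 fold change of -0.33 (SE 0.16, 95% interval -0.69 to 0.04, adjusted p = 0.437). Summed xylem markers were 290 and 282 RPKM in 4x and 177 and 179 RPKM in 2x. Whether xylem content plays a part in the level of Cs4g04460 was not tested.

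Shaker channels carry voltage-gated potassium currents across the plasma membrane, inward (AKT1, KAT1), weakly rectifying (AKT2) or outward (GORK, SKOR). Of 11 members 6 were tested, none was called, and all 6 intervals stayed within a 2-fold change. The AKT2-matched gene Cs3g03790, a phloem and guard cell type channel, had 21.6 and 21.8 RPKM in 4x, against 20.3 and 19.8 RPKM in 2x, without overlap but with a log2 fold change of only 0.11 (95% interval -0.14 to 0.36). The AKT1-matched gene Cs4g17320 had 14.8 and 14.4 RPKM in 4x and 14.3 and 11.3 RPKM in 2x (0.19, adjusted p = 0.651). All 3 tested outward channel genes had values below 0, as did 55.6% of all tested genes, and none was called. They were below 0 under median-of-ratios scaling too. With 4x replicate 1 left out the values were -0.05 in Cs9g13100, -0.02 in Cs1g04810 and 0.0052 in orange1.1t04118. Cs9g13100 had 16.6 and 20.8 RPKM in 4x and 22.1 and 21.1 RPKM in 2x, for a log2 fold change of -0.21 (adjusted p = 0.565). Cs1g04810 gave -0.18 (adjusted p = 0.66) and orange1.1t04118 -0.10 (adjusted p = 0.822). The outward-matched copies orange1.1t04158 and orange1.1t05776 stayed under the filter. The KAT1-matched gene Cs2g03470, a guard cell inward channel in Arabidopsis, was close to undetected with 0.0913 and 0.289 RPKM in 4x and 0.137 and 0.269 RPKM in 2x, which is too few reads for a comparison.

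Tandem-pore TPK channels release potassium from the vacuole. Of 6 members 4 were tested, and the family summed to 72.2 and 69.8 RPKM in 4x, against 64.3 and 68.6 RPKM in 2x. orange1.1t01767, matched to TPK5, had 11.97 and 10.96 RPKM in 4x and 7.87 and 10.2 RPKM in 2x, without overlap (0.34, 95% interval -0.02 to 0.69, adjusted p = 0.403).

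HAK/KUP/KT carriers take up potassium with protons or cycle it between compartments. Of 18 members 11 were tested, and none was called. Of the 11, 9 were above 0 with a median of 0.04, against 7170 of all 16157 tested genes. With median-of-ratios scaling 10 were, against 8168 of 16157. Without 4x replicate 2 only 6 of the 11 were above 0. Their sum was 209 and 225 RPKM in 4x, against 206 and 197 RPKM in 2x. Cs2g11370, matched to potassium transporter 11, was the most abundant at 68.9 and 68.0 RPKM in 4x and 63.5 and 55.6 RPKM in 2x (0.20, adjusted p = 0.479). Its neighbour Cs2g11380 had 3.43 and 2.79 RPKM in 4x, against 1.92 and 1.79 RPKM in 2x. Both 4x values were higher, with a log2 fold change of 0.61 (SE 0.22, 95% interval 0.11 to 1.11, adjusted p = 0.26). On the other side, Cs2g10570 had 2.66 and 3.21 RPKM in 4x and 3.73 and 4.69 RPKM in 2x (-0.45, adjusted p = 0.387). Cs5g32740 had 2.21 and 0.735 RPKM in 4x and 1.07 and 0.964 RPKM in 2x, so that its 4x libraries differed from each other more than the groups did.

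CLC proteins move nitrate or chloride across the tonoplast and plastid membranes. All 6 members were tested, and the family summed to 146 and 151 RPKM in 4x and 151 and 137 RPKM in 2x. The leading gene orange1.1t03372, matched to CLC-e, had 47.2 and 49.0 RPKM in 4x and 43.1 and 46.0 RPKM in 2x (0.11 on the log2 scale). Cs4g05340 had 20.6 and 20.2 RPKM in 4x, against 17.7 and 16.4 RPKM in 2x (0.25, 95% interval -0.01 to 0.52, adjusted p = 0.392). Both 4x values were above both 2x values in these genes. Cs2g25150, matched to the nitrate/proton exchanger CLC-a, was low with 1.13 and 1.31 RPKM in 4x and 1.02 and 0.572 RPKM in 2x (0.42, adjusted p = 0.635).

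SLAC1 is the S-type anion channel that closes stomata in Arabidopsis. Its match Cs5g09820 had 3.44 and 4.61 RPKM in 4x and 3.51 and 4.53 RPKM in 2x. The groups overlapped, and the log2 fold change was 0.00 in size (SE 0.21), with a 95% interval of -0.48 to 0.48. Cs2g21170, matched to the homologue SLAH1, had 1.80 and 2.12 RPKM in 4x and 1.92 and 1.94 RPKM in 2x. Only these 2 of 5 members passed the filter.

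ALMT proteins carry malate and other anions, ALMT9 across the tonoplast and ALMT12 across the guard cell plasma membrane. Of 14 members 3 were tested and 5 were listed at 0 in every library. The ALMT9-matched gene Cs7g26550 supplied most of the family's level with 53.8 and 56.7 RPKM in 4x and 54.3 and 45.9 RPKM in 2x, which overlapped (0.14, adjusted p = 0.671). The ALMT12-matched gene Cs7g22940 had 3.70 and 3.34 RPKM in 4x, against 2.10 and 2.16 RPKM in 2x. Both 4x values were higher, with a log2 fold change of 0.61 (SE 0.21, 95% interval 0.15 to 1.08), and the adjusted p of 0.217 missed the threshold. Summed stomatal lineage markers were 2.86 and 4.20 RPKM in 4x and 2.91 and 3.14 RPKM in 2x. These markers were near the detection limit and do not measure how many guard cells a leaf held. The paper reports a lower stomatal density in the doubled diploid. Whether guard cell content plays a part in the level of Cs7g22940 was not tested. Further copies matched to ALMT9 (Cs5g02830) and ALMT12 (Cs5g31410) stayed under the filter.

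**Figure D4:**
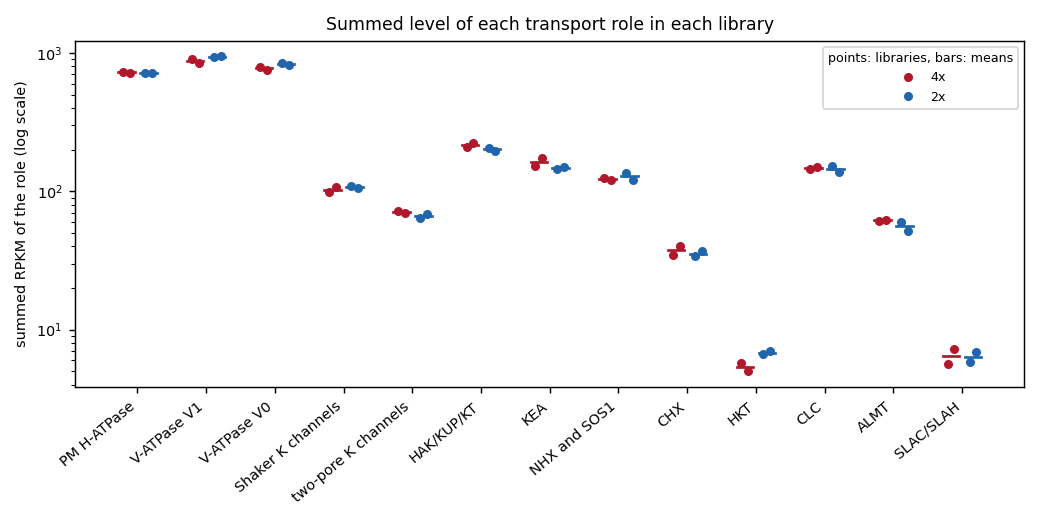
Summed RPKM (log scale) of each transport role in each library, with 4x left of 2x, points for libraries and bars for means. V-ATPase sectors and plasma membrane H+-ATPases hold the highest sums, and no role's means differ by more than the ratio of 0.785 seen for HKT.

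Members described as other proteins are given apart from the transporters. The 18 aldo-keto reductases, matched through the potassium channel beta subunit, include the most abundant member of all, Cs7g18800, with 320 and 334 RPKM in 4x and 263 and 319 RPKM in 2x. Cs3g10570 had 30.0 and 29.6 RPKM in 4x, against 42.1 and 37.0 RPKM in 2x, with no overlap (-0.40, SE 0.11, adjusted p = 0.134). It is 1 of 10 neighbours, singled out after their values were seen, which summed to 273 and 262 RPKM in 4x, against 306 and 309 RPKM in 2x. Cs8g10080 (0.40, adjusted p = 0.465) and Cs8g03180 (-0.36, adjusted p = 0.571) were further reductases among the 8 largest changes each way.

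Among 11 lists of neighbouring pathway genes, 3 of 121 tested genes (2.48%) were called, against 1.39% of all tested genes. Vacuolar H+-pyrophosphatases are the second proton pump of the tonoplast. The list of pyrophosphate-energized pumps also held Cs2g08800, whose description leads with membrane proton pump 2. All 5 tested genes of this list were below 0, as were 55.6% of all tested genes, with a median of -0.23 and none called. That median was -0.10 without 4x replicate 1 and -0.33 without 4x replicate 2, and 4 of the 5 were below 0 without 2x replicate 1. The family summed to 137 and 146 RPKM in 4x and 162 and 146 RPKM in 2x. CBL calcium sensors and the CIPK kinases they bind control AKT1 and SOS1, among other transporters. Of 17 tested CIPK genes 1 was called lower, Cs9g08000, with 61.0 and 52.5 RPKM in 4x, against 117 and 96.5 RPKM in 2x (-0.90, SE 0.13, adjusted p = 0.0125). Of 7 tested CBL genes 1 was called higher, the CBL9-matched Cs1g18400, with 7.61 and 6.20 RPKM in 4x, against 3.24 and 3.04 RPKM in 2x (1.02, SE 0.18, adjusted p = 0.0359). The groups did not overlap in either gene. Cs2g02120, whose deposited description leads with a genome scaffold of another organism and then names a tonoplast dicarboxylate transporter, a malate carrier, rose in 4x to 37.0 and 36.4 RPKM, against 24.3 and 23.1 RPKM in 2x (0.62, SE 0.11, adjusted p = 0.0325). With a library left out Cs9g08000 stayed called, with adjusted p between 0.00625 and 0.0443. The adjusted p of Cs1g18400 was 0.093 without 2x replicate 1, 0.125 without 2x replicate 2 and 0.0854 without 4x replicate 1. That of Cs2g02120 was 0.0702 and 0.119 without 2x replicates 1 and 2, and 0.0627 and 0.0716 without 4x replicates 1 and 2. None of the 3 was called with no filter (adjusted p 0.224 to 0.26). SRK2E, the OST1 kinase that activates SLAC1 in Arabidopsis, had 35.1 and 35.1 RPKM in 4x and 36.8 and 34.6 RPKM in 2x. None of 26 cyclic nucleotide-gated channels, 38 nitrate transporters, 20 magnesium transporters and 4 CAX exchangers tested was called (limma).

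**Figure D5:**
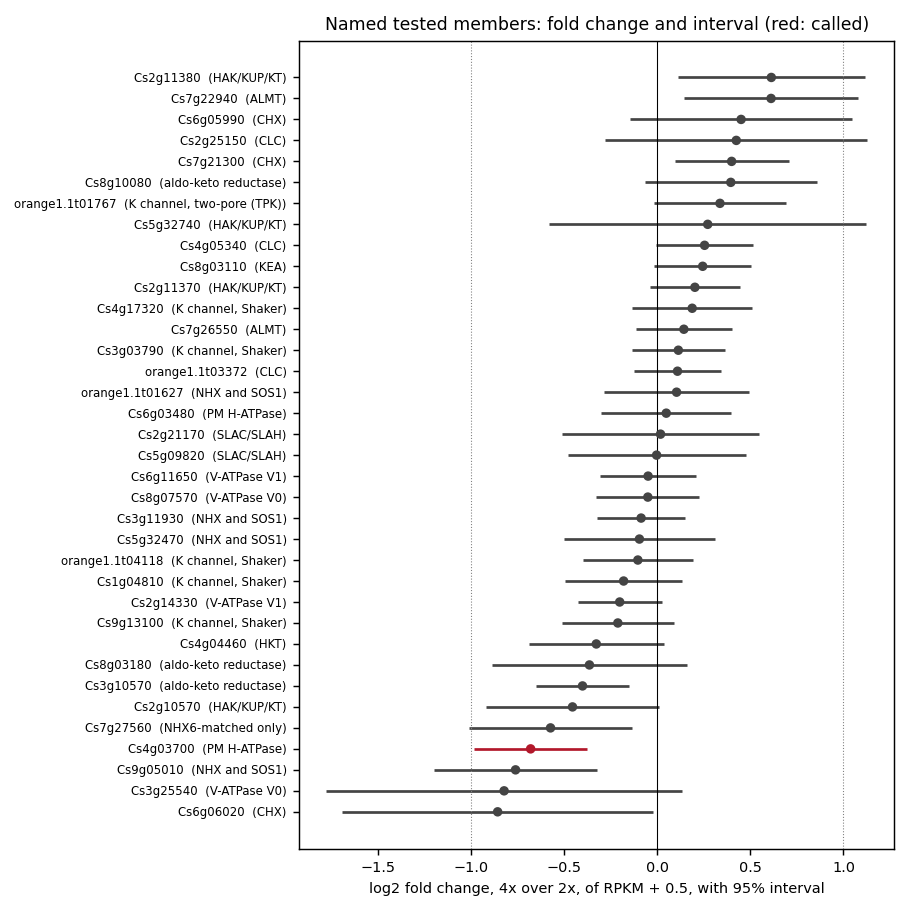
Log2 fold change (4x over 2x, of RPKM + 0.5) with its 95% interval for 36 named and tested members, called in red. Only Cs4g03700 is called, and the interval of SLAC1-matched Cs5g09820 spans -0.48 to 0.48.

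With 2 libraries per group an exact permutation test of a single gene cannot go below p = 0.333, so the tests above rest on a spread shared across genes. An interval within a 2-fold change, as in 104 of 113 tested members, leaves smaller differences undecided.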

How the data were processed

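RNA from pooled mature leaves of 4x and 2x Ziyang xiangcheng was sequenced in 2 libraries per group. The submitters' processing notes name TopHat2 2.0.9, Bowtie2 2.0.6, HTSeq 0.5.4p3 and DESeq 1.10.1, and the methods name the Citrus sinensis genome, whose release is not given in the sources used here. The deposited table holds RPKM, which the authors computed per gene from uniquely mapped reads, so copies that share sequence lose reads. No other sample column was present. RPKM steps gave whole reads (tolerance 0.001) in 24073 of 24073 detected genes. The shortest gene length that fitted was taken, so counts of a gene that share a factor can come out too low. Recovered reads summed to 97.85 to 97.94% of the depth of a library. The reads given for members and the voom fit rest on these counts.

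Genes averaging 1 RPKM or more were tested on log2(RPKM + 0.5) with limma 3.58.1 (trended eBayes, R 4.3.3), 4x against 2x, Benjamini-Hochberg adjusted over 16157 genes at 0.05. Limma on the deposited RPKM replaced the study's count model, and voom on recovered reads was an alternative. Fits were tested on simulated data. Named members were those called, the 8 largest changes each way, the most abundant and smallest-p gene per role, and matches to the listed channels and exchangers. Tandem-copy and other-protein groups were added later. The members and lists were chosen with earlier results of these data known. Alternatives were other pseudocounts (0.1, 1), filters (none, 3 RPKM), scaling, robust eBayes, a replicate block, voom on recovered reads and each library left out. No sequence was used here. 1 named member is not reported here.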

Additional observations from a re-analysis of the deposited data

How the results depend on the processing

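Of 435 alternative values for the 37 named and tested members, 412 kept direction and side of the threshold. Only Cs4g03700 was called in the main fit, so the other members could change side only by gaining a call. The share kept is therefore no measure of how stable a call is. All tested genes gave 224 calls, against 0 of 24073 with no filter (limma; 2438 at an unadjusted p below 0.05), 404 with voom and 77 to 264 with a library left out. Members called were 1, against 0 with no filter, 0 with median-of-ratios scaling, 2 with voom (Cs4g03700 and Cs9g05010) and 0 to 2 with a library left out. The members' median log2 fold change was -0.01, against 0.0196 with that scaling and -0.04 to -0.02 with a library left out. The cause of these shifts was not tested.

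The sources used here do not say whether same-numbered libraries shared a harvest or a batch. Deviations of same-numbered libraries correlated at -0.05 across genes. A single correlation cannot exclude a shared effect in some of the genes. A replicate block leaves fewer residual degrees of freedom, so that fit rests more on the spread shared across genes. Why the block changed the number of calls was not tested. With the replicate block 832 genes were called (322 higher, 510 lower), among them 3 members, Cs4g03700, Cs9g05010 (adjusted p = 0.034) and Cs3g25540 (adjusted p = 0.0244).

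Cs5g09820 turned to 0.0248 with median-of-ratios scaling. With a library left out, log2 fold changes changed sign in Cs6g03480 (-0.14 to 0.24), orange1.1t01627 (-0.10 to 0.31), Cs5g09820 (-0.19 to 0.19), Cs8g07570 (-0.16 to 0.060), Cs6g11650 (-0.12 to 0.02), Cs5g32740 (-0.30 to 0.84), orange1.1t04118 (-0.21 to 0.0052) and Cs2g21170 (-0.074 to 0.11). Depth limits genes near 1 RPKM, where a library holds few reads.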
